A study of Danio rerio and Garra andruzzii with 24 samples.

Results

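Solute carriers are the membrane proteins that carry amino acids, sugars, ions, metals, nucleosides, vitamins and other small molecules across the plasma membrane and the membranes of organelles. The genes described here are the zebrafish genes whose symbol is slc followed by a family number, without the mitochondrial slc25a carriers and 6 further symbols (*slc23a2*, *slc19a2*, *slc40a1*, *slc11a2*, *slc48a1a* and *slc27a6*), and with a mean raw count of at least 100 over the 12 PAC-2 libraries. This rule kept 120 of 395 slc genes in a table of 35886 genes. Of the others, 55 were slc25a genes, 6 were the listed symbols and 214 had a lower mean count, 26 of them with no count in any library. All 120 passed the filter on low counts, and 118 are transporters by name. *slc4a1ap* and *slc7a6os* are named after a neighbour or partner and are not. Another 14 genes have SLC in capitals and were not matched, 4 of them with a mean count of 100 or more. Just inside the minimum lay *slc35f2* with a mean count of 103.2 and *slc37a1* with 114.2, and just outside it *slc7a6* with 91.9 and *slc45a1* with 90.2.

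The cell lines sequenced were EPA, derived from embryos of the blind cavefish *P. andruzzii*, and PAC-2, derived from zebrafish embryos, both labelled as fibroblasts. EPA cells grew in Leibovitz L-15 medium with 20% serum and PAC-2 cells with 15%, so that serum and line cannot be told apart. Cells of both lines spent 2 days in darkness and were then sampled before blue light of 468 nm (0 h) and after 1, 3 and 6 h of it, with 3 poly-A RNA-seq libraries for each line and time, 24 in all. Dark libraries exist at 0 h only, so the effect of light and that of the hours passed cannot be told apart. No source used here states that the 3 libraries per time are separate cultures, and p-values then measure only how far these libraries differ, which may be technical variation.

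Many solute carriers, such as the GLUT sugar carriers and the nucleoside carriers, let a solute run down its own gradient. Others are exchangers, which swap one solute for another, or cotransporters driven by sodium, proton or chloride gradients. In amino acid uptake, sodium-coupled carriers such as SNAT2 load the cell, and exchangers such as ASCT1 and ASCT2 swap neutral amino acids. The exchanger LAT1, which needs the heavy chain 4F2hc (CD98) to reach the membrane, trades amino acids of the cell for essential ones. Zinc is handled by opposed families, SLC30 proteins (ZnT) that take zinc out of the cytosol and SLC39 proteins (ZIP) that bring it in. Teleosts carry many of these genes in a and b copies.

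Total counts per library lay between 20037859 and 32521127 in the PAC-2 genome table and between 28222136 and 40053900 in the EPA table. Of 20 fibroblast markers, 17 were above 1 TPM in PAC-2 cells at 0 h, and no listed marker of neural, blood or liver cells was. Markers were not checked in EPA cells. The summed level of 5 muscle markers was 36.3 to 43.5 TPM at 6 h against 67.1 to 67.6 TPM at 0 h. That of 4 endothelial markers, of which 1 was above 1 TPM, was 33.3 to 39.5 TPM at 6 h and 17.2 to 25.1 TPM at 0 h. The 5 epidermal markers, of which 2 were above 10 TPM, summed to 95.2 to 99.8 TPM at 6 h and 109.2 to 119.8 TPM at 0 h. The 4 pigment cell markers, of which 1 was above 10 TPM, summed to 212 to 215 TPM at 6 h and 174 to 197 TPM at 0 h. The part of these shifts in the results was not tested. In bulk RNA, fewer cells of a type and less RNA per cell cannot be told apart.

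In PAC-2 cells kept in darkness, the 120 genes spanned 1.59 to 215 TPM (a transcript level corrected for gene length and library depth) with a median of 10.5, and 63 of them were above 10 TPM. Only 4 exceeded 100 TPM. *slc1a5*, which encodes the neutral amino acid exchanger ASCT2, averaged 215 ± 22 TPM (SD, n = 3). *slc3a2b*, the 4F2hc heavy chain, averaged 163 ± 3.5 TPM and *slc33a1*, the acetyl-CoA carrier of the endoplasmic reticulum, 159 ± 15 TPM; the libraries of these 2 genes overlapped. *slc35d1a*, a carrier of nucleotide sugars into the secretory pathway, averaged 115 ± 10 TPM, and all its libraries lay below those of the first 3 genes. The next 6 were the anion exchanger gene *slc4a2a* (96.1 TPM), the phosphate carrier gene *slc20a1b* (94.1 TPM), the zinc carrier genes *slc30a6* (91.8 TPM), *slc39a6* (68.6 TPM) and *slc30a1a* (58.4 TPM), and the glucose carrier gene *slc2a1b* (70.0 TPM). *slc4a2a*, *slc20a1b* and *slc30a6* overlapped in their libraries and cannot be ordered.

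**Figure D1:**
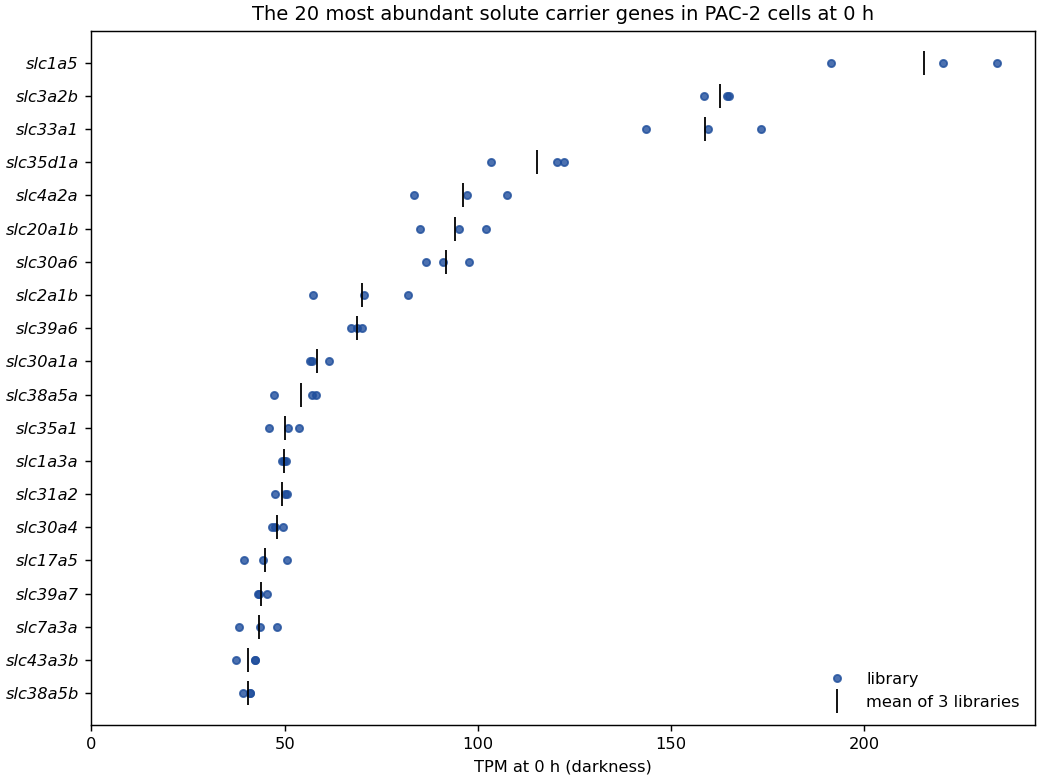
Levels of the 20 most abundant solute carrier genes in PAC-2 cells at 0 h, in TPM on the horizontal axis, with a point for each of 3 libraries and a line at their mean. *slc1a5* stands highest at 215 TPM, and the genes below the first 4 lie under 100 TPM on average.

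After 6 h of light, 28 of the 120 genes rose and 18 fell in PAC-2 cells against 0 h, at an adjusted p under 0.05 in edgeR's quasi-likelihood test with Benjamini-Hochberg adjustment over the 18017 genes tested. These are 23.3% and 15% of the solute carriers, where 14.1% of all tested genes rose and 14.9% fell, and 17.6% and 21.0% of the 12091 tested genes with a mean count of 100 or more. The median log2 fold change was 0.05, beside 0.00 over all genes, with a range of -0.72 to 1.15. At 6 h all 3 libraries lay above all 3 at 0 h in 41 genes and below them in 25, and the groups overlapped in 54. These separations were not counted over all genes, so they cannot be read as particular to solute carriers. A differentially expressed gene (DEG) is one with a log2 fold change of at least 1 in size and an adjusted p under 0.001, the study's thresholds. By this rule 2 solute carriers increased, where 1.47% of all genes did, and 0 decreased, where 0.0722% did. DESeq2 also gave 0 decreases, as did an unadjusted p under 0.001 with the same minimum fold in edgeR.

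The amino acid and peptide carriers held both DEGs. Of these 28 genes, 12 rose and 6 fell, with a median log2 fold change of 0.24. These are 42.9% and 21.4%, where 14.1% of all tested genes rose and 14.9% fell. Among tested genes with a mean count of 100 or more, 17.6% rose and 21.0% fell, so the share of decreases was near that of such genes. Normalised counts, scaled by TMM to the mean library size, are given for each library, and the value before an adjusted p is the log2 fold change. *slc6a15* (ENSDARG00000062821, chromosome 18, 16151774 to 16181952, reverse strand in GRCz11) encodes a sodium-coupled transporter of neutral amino acids, known in mammals to carry branched-chain amino acids and proline. It had 1093, 1009 and 996 normalised counts at 6 h and 533, 448 and 411 at 0 h (log2 fold change 1.15, SE 0.13, adjusted p = 3.64e-05). At 1 h it had 526, 579 and 395 and at 3 h 419, 384 and 484, which overlapped with 0 h, so the increase was seen between 3 and 6 h. *slc6a9* (ENSDARG00000018534, chromosome 2, 33335911 to 33422798, forward strand) encodes the glycine transporter GlyT1. It had 542, 497 and 447 normalised counts at 6 h against 277, 217 and 219 at 0 h (log2 fold change 1.05, SE 0.12, adjusted p = 7.42e-06), and its 3 h libraries, at 329.5, 319 and 401, already lay above those at 0 h (0.55, SE 0.12, adjusted p = 0.00528). Without replicate 2 or replicate 3 at 0 h or replicate 1 at 6 h, its log2 fold change at 6 h came to 0.99, 1.00 and 0.98, each just under 1, and the count of DEGs to 1.

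*slc7a3a*, a carrier of cationic amino acids such as arginine, had the lowest adjusted p of the 120 genes. Its counts were 2813, 2679 and 2505 at 0 h, 3037, 3018 and 2908 at 1 h, 3481, 3523 and 3599 at 3 h and 5354, 5103 and 4999 at 6 h. It was higher at each time than at the one before in all libraries, and at 6 h it had risen (log2 fold change 0.95, SE 0.05, adjusted p = 2.66e-10). *slc1a4*, encoding the neutral amino acid exchanger ASCT1, had 1477, 1339.9 and 1360.2 normalised counts at 6 h and 856, 888 and 933 at 0 h (0.64, SE 0.07, adjusted p = 4.21e-06). *slc1a5* had 25220.1, 24048 and 23532 at 6 h and 17557, 17290.4 and 16064 at 0 h (0.52, SE 0.05, adjusted p = 5.62e-07), the largest number of added counts among the genes named here. *slc38a2*, the sodium-coupled SNAT2 carrier, had 4433, 4220.1 and 4356 at 6 h and 3006, 2817 and 2845 at 0 h (0.59, SE 0.05, adjusted p = 6.87e-08). In none of these genes did the 6 h and 0 h libraries overlap, and each had also risen at 3 h.

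For the LAT1 exchanger, the heavy chain gene passed the test at 6 h in the genome table and the light chain gene did not. A difference between their fold changes was not tested. *slc3a2b* (4F2hc) had 6040.3, 5969.98 and 5999.8 normalised counts at 6 h and 4677, 4909 and 5049 at 0 h (0.30, SE 0.05, adjusted p = 0.000161), and its 3 h libraries, at 6381, 6459.6 and 5910.5, reached as high. *slc7a5* (LAT1) varied far more: it had 369.6, 384 and 436 at 6 h and 334, 268 and 259 at 0 h, which did not overlap, but its 3 h libraries alone spread over 137, 164 and 305. Its difference at 6 h did not pass the test (0.46, SE 0.32, adjusted p = 0.325) in the fit over all times and did with only the 0 h and 6 h libraries fitted. The cystine carrier gene *slc7a11* had a mean count of 2.42 and *slc7a7* of 0, and neither was tested. *slc3a2a*, *slc7a8a*, *slc7a8b*, *slc2a1a*, *slc16a1a* and *slc16a3* also had mean counts under 4 and were not tested, so these uptake genes are represented by *slc3a2b*, *slc2a1b* and *slc16a1b*. *slc16a1b*, a lactate carrier, had 395, 369 and 299 at 6 h and 343, 316 and 249 at 0 h (0.22, SE 0.18, adjusted p = 0.384).

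**Figure D2:**
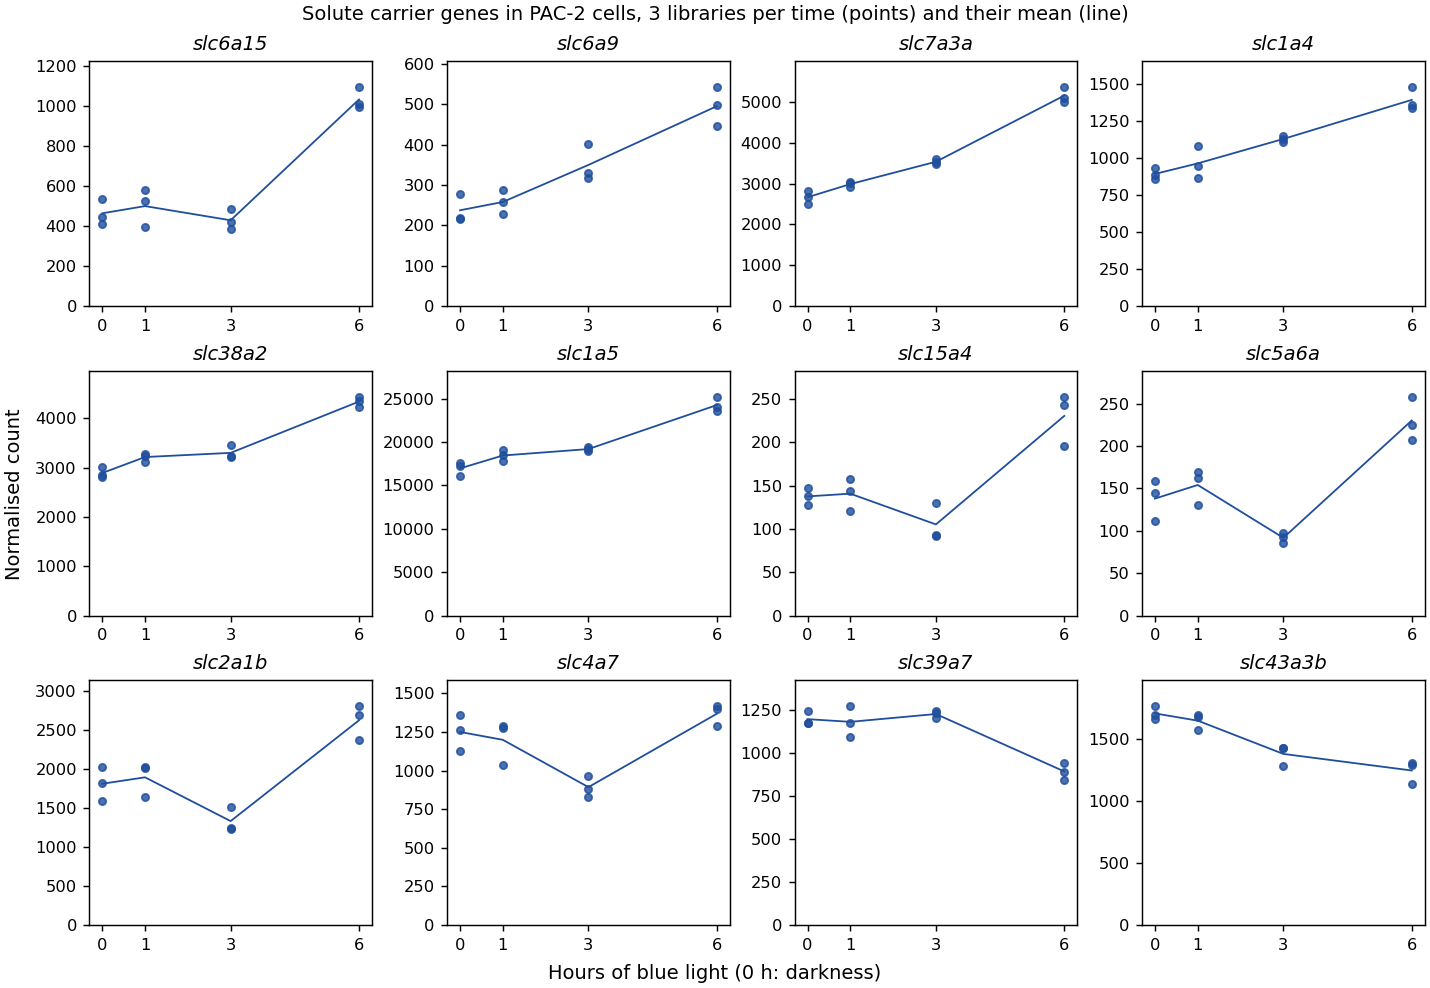
Normalised counts of 12 solute carrier genes in PAC-2 cells (vertical axis, from 0 in each panel) against hours of blue light, with a point for each library and a line through the means of 3 libraries. *slc7a3a*, *slc6a9* and *slc1a4* were higher at 3 h and again at 6 h, *slc15a4*, *slc5a6a* and *slc2a1b* had their lowest mean at 3 h and their highest at 6 h, and *slc39a7* was lower at 6 h only.

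Other amino acid and peptide carriers moved in both directions. *slc15a4*, a proton-coupled carrier of histidine and peptides in the lysosome (ENSDARG00000102612, chromosome 8, 35809081 to 35960987, reverse strand), had 243, 253 and 196 normalised counts at 6 h and 148, 138 and 127 at 0 h (0.74, SE 0.15, adjusted p = 0.00153). *slc7a10a*, related to the mammalian exchanger Asc-1 of small neutral amino acids, had 818, 827 and 811 at 6 h and 601, 559 and 494 at 0 h (0.57, SE 0.07, adjusted p = 1.08e-05). Its copy *slc7a10b* moved the other way, with 105, 93.3 and 88.3 at 6 h and 145, 139 and 121 at 0 h (-0.50, SE 0.15, adjusted p = 0.0205). That call was lost on leaving out replicate 1 or 2 at 0 h or replicate 2 or 3 at 6 h. *slc43a3b*, whose mammalian counterpart carries purine nucleobases although its family is grouped with amino acid carriers, had 1138, 1292 and 1307 at 6 h and 1689, 1763 and 1664 at 0 h (-0.46, SE 0.06, adjusted p = 3.84e-05), and had fallen at 3 h as well. *slc43a1b*, of the LAT3 type, fell too (-0.38, SE 0.09, adjusted p = 0.00614). *slc43a1a* had the lowest fold change of all 120 genes, -0.72, but its 0 h libraries had 343, 77.5 and 505, and it did not pass the test at any time. *slc30a7* was as uneven, with 114, 176 and 370.4 normalised counts at 6 h.

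Among 9 pairs of a and b copies, 1 pair rose in both members (*slc7a3a* 0.95 and *slc7a3b* 0.40 on the log2 scale). In 2 pairs 1 copy rose and the other fell: *slc7a10a* with *slc7a10b*, and the glutamine carrier copies *slc38a5a* (0.40) and *slc38a5b* (-0.20). In 4 pairs 1 copy changed, and in 2 pairs no copy passed the test. Reads of near-identical copies, and of tandem genes such as *slc6a22.1* and *slc12a10.3*, may have been split between them by the counting, so that their values are uncertain.

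Zinc carriers were among the genes that fell. Of 16 metal ion carriers, 0 rose and 5 fell at 6 h (median log2 fold change -0.11), where DESeq2 gave the same counts and an unadjusted p under 0.05 in edgeR gave 1 and 5. Among all genes 14.9% fell, and 21.0% of those with a mean count of 100 or more. All 5 that fell were zinc carriers, and the class is mostly that, with 7 SLC30 and 7 SLC39 genes among its 16. *slc39a7*, encoding the ZIP7 carrier that releases zinc from the endoplasmic reticulum, had 892, 845 and 943 normalised counts at 6 h and 1176, 1174 and 1243 at 0 h (log2 fold change -0.42, SE 0.06, adjusted p = 8.16e-05). At 3 h it had 1203, 1248 and 1231, within or above the 0 h values, and it passed the test at 6 h but not at 1 or 3 h. *slc30a1b*, a copy of the zinc exporter gene of the plasma membrane, had 141, 149 and 145 at 6 h and 187, 225 and 225.8 at 0 h (-0.55, SE 0.13, adjusted p = 0.00499), and its more abundant copy *slc30a1a* had 2193, 2299 and 2245 at 6 h and 2386, 2301 and 2482 at 0 h (-0.09, SE 0.05, adjusted p = 0.233). *slc39a14*, which carries zinc and iron into the cell, fell by 0.50 on the log2 scale, *slc39a6* by 0.31 and *slc30a6*, a zinc carrier of the Golgi, by 0.27, with no overlap between 6 h and 0 h libraries. The call of *slc30a6* was lost without replicate 3 at 0 h or replicate 1 or 2 at 6 h (adjusted p up to 0.0634).

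Of 22 carriers of bicarbonate, protons, phosphate, sulphate and other inorganic ions, 6 rose and 0 fell at 6 h (median 0.14). These are 27.3% and 0%, where 14.1% of all tested genes rose and 14.9% fell. Among tested genes with a mean count of 100 or more the shares were 17.6% and 21.0%. DESeq2 gave 6 and 0, and an unadjusted p under 0.05 gave 7 and 0. *slc26a5*, encoding prestin, known in mammals from cochlear hair cells, had 406, 345 and 354 normalised counts at 6 h and 252, 252 and 215 at 0 h (0.62, SE 0.12, adjusted p = 0.000686). The sulphate carrier gene *slc26a2* (0.49) and the phosphate carrier genes *slc20a2* (0.48) and *slc20a1b* (0.25) rose as well. The abundant *slc4a2a* had a log2 fold change of 0.06 and did not pass the test (9254, 9088 and 9174 normalised counts at 6 h, 9406, 8898 and 8172 at 0 h).

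**Figure D3:**
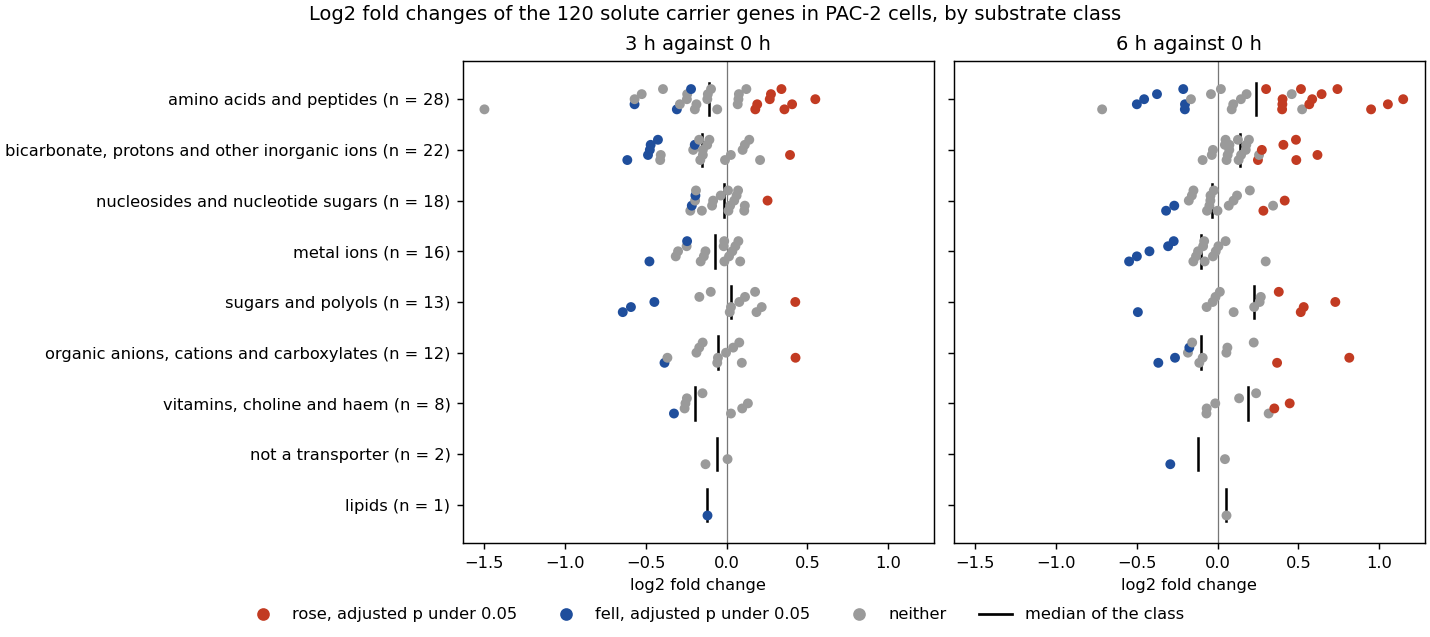
Log2 fold changes of the 120 solute carrier genes in PAC-2 cells at 3 h and at 6 h against 0 h (horizontal axes), by substrate class from the family number (rows), with red points for genes that rose, blue for those that fell and grey for neither, and a line at each class median. At 6 h, 12 of 28 amino acid carriers rose and 5 of 16 metal carriers fell, where 14.1% of all tested genes rose and 14.9% fell. At 3 h, 6 of 22 inorganic ion carriers fell, where 10.1% of all tested genes did. Among tested genes with a mean count of 100 or more, 17.6% rose and 21.0% fell at 6 h, and 13.4% fell at 3 h.

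In the other classes, increases and decreases were few. For their counts, the shares of all tested genes were again 14.1% that rose and 14.9% that fell. With a mean count of 100 or more they were 17.6% and 21.0%. Of 13 sugar and polyol carriers 4 rose and 1 fell, of 12 carriers of organic anions, cations and carboxylates 2 rose and 3 fell, of 18 carriers of nucleosides and nucleotide sugars 2 rose and 2 fell, and of 8 vitamin, choline and haem carriers 2 rose. *slc2a1b*, the GLUT1 glucose carrier, had 2801, 2689 and 2372 normalised counts at 6 h and 2021, 1821 and 1584 at 0 h (0.53, SE 0.12, adjusted p = 0.00525). *slc5a6a* (ENSDARG00000042859, chromosome 20, 36646761 to 36671660, reverse strand), counted with the sugar carriers by its family number, encodes a carrier known in mammals for biotin and pantothenate. It had 207, 258 and 225 at 6 h and 158, 144 and 112 at 0 h (0.73, SE 0.15, adjusted p = 0.00118). *slc47a3*, a proton-coupled exporter of organic cations, had 342, 308 and 320.4 at 6 h and 169.6, 191 and 193 at 0 h (0.81, SE 0.12, adjusted p = 7.62e-05).

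Smaller changes named by the same rule were an increase of *slc29a2*, a nucleoside carrier (0.42, SE 0.13, adjusted p = 0.0202), of *slc19a1*, the reduced folate carrier (0.45, SE 0.10, adjusted p = 0.00393), and of *slc35d1a* (0.28, SE 0.05, adjusted p = 0.000355). Decreases were those of *slc37a1*, a sugar phosphate carrier (-0.49, SE 0.14, adjusted p = 0.0128), of *slc10a7* (-0.37, SE 0.08, adjusted p = 0.00271), of *slc35b4*, a nucleotide sugar carrier (-0.32, SE 0.07, adjusted p = 0.00219), and of *slc7a6os* (-0.29, SE 0.09, adjusted p = 0.0193), which is no transporter. *slc37a1* lost its call without replicate 2 at 0 h or replicate 1 at 6 h. *slc29a2* lost its call without replicate 2 at 0 h or replicate 1 or 3 at 6 h (adjusted p up to 0.112), and *slc7a6os* without replicate 2 or 3 at 0 h or replicate 1 or 2 at 6 h (adjusted p up to 0.0827). *slc33a1* had 5233, 5154 and 4982 normalised counts at 6 h and 5132, 4941 and 4755 at 0 h, which overlapped (0.05, SE 0.04, adjusted p = 0.393).

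At 1 h, 0 of the 120 genes passed edgeR's test in either direction, where 0.155% of all genes rose and 0.0167% fell, and 0 were DEGs, against 0.0222% of all genes up and 0% down. An unadjusted p under 0.05 gave 12 higher and 1 lower, and DESeq2 gave 0 after adjustment and 10 and 0 before it. Of all genes 0.3% rose and 0.0722% fell by DESeq2 after adjustment. Shares of all genes were not counted at an unadjusted p in any comparison. Counts at an unadjusted p thus cannot be read as particular to solute carriers. At 3 h, 12 genes rose and 19 fell against 0 h, which are 10% and 15.8% of the solute carriers. Of all genes 11.3% and 10.1% did, and of tested genes with a mean count of 100 or more 15.4% and 13.4%. DEGs at 3 h were 0, against 0.705% of all genes up and 0.0278% down. An unadjusted p under 0.05 gave 15 and 37, and an unadjusted p under 0.001 with the minimum fold gave 0 and 0. DESeq2 gave 12 and 23 with 0 DEGs, where 10.5% of all genes rose and 10.7% fell by DESeq2. Log2 fold changes at 3 h ranged from -1.50 to 0.55, and the gene with the lowest was not a DEG. The number that fell at 3 h was 7 without replicate 1 or replicate 2 at 0 h or replicate 2 at 3 h, and 9 without replicate 1 at 3 h. At 6 h the number that fell was 11 without replicate 2 at 6 h.

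The balance at 3 h also depended on the scaling. With the library totals in place of the TMM factors, an alternative chosen after seeing the data, the median log2 fold change of all genes moved to -0.11 at 3 h and to 0.06 at 6 h. By these totals 5 solute carriers rose and 42 fell at 3 h, where 7.05% and 19.8% of all genes did, and 24 of the 31 TMM calls were shared. At 6 h the totals gave 32 that rose and 14 that fell, where 16.2% and 11.2% of all genes did, with 42 of 46 calls shared, and 0 and 5 among the metal carriers.

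The genes that fell at 3 h included 6 of the 22 inorganic ion carriers, and 1 of the 22 rose. These are 27.3% and 4.5%, where 10.1% of all tested genes fell and 11.3% rose. Among tested genes with a mean count of 100 or more 13.4% fell and 15.4% rose. With library totals 12 of the 22 fell and 0 rose, where 19.8% and 7.05% of all genes did. *slc24a3*, an exchanger of sodium for calcium and potassium, had 482, 425 and 319 normalised counts at 0 h, 446, 444 and 402 at 1 h, 239.8, 274 and 293 at 3 h and 468, 452 and 473 at 6 h, so that only the 3 h libraries lay below all others (log2 fold change -0.61, SE 0.12, adjusted p = 0.00222 at 3 h). *slc4a7*, a sodium-bicarbonate cotransporter, had 1264, 1359 and 1128 at 0 h, 1289, 1273 and 1036 at 1 h, 884, 829 and 966 at 3 h and 1417, 1399.7 and 1288 at 6 h (-0.49, SE 0.09, adjusted p = 0.00164 at 3 h), the same order. The taurine carrier gene *slc6a6b* had 419, 487 and 567 at 3 h and 886, 689 and 595 at 0 h (-0.57, SE 0.15, adjusted p = 0.0195). Its call was lost without replicate 1 at 0 h or replicate 1 or 2 at 3 h, with no filter on low counts, with only 2 times fitted and with a replicate term. *slc37a1* had 98.1, 77.7 and 91.4 at 3 h and 129, 159.97 and 129.96 at 0 h (-0.64, SE 0.14, adjusted p = 0.00401).

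The 12 genes that rose at 3 h had all risen at 6 h too. Of the 28 amino acid carriers 8 rose and 3 fell at 3 h, which are 28.6% and 10.7%. Of all tested genes 11.3% rose and 10.1% fell, and of those with a mean count of 100 or more 15.4% and 13.4%. With library totals 4 of the 28 amino acid carriers rose and 9 fell at 3 h, where 7.05% and 19.8% of all genes did. Besides *slc6a9* and *slc7a3a*, the largest of these 3 h increases were those of *slc47a3* (0.43, SE 0.12, adjusted p = 0.0188), *slc2a10* (0.43, SE 0.12, adjusted p = 0.0151), a GLUT family sugar carrier, and *slc26a5* (0.39, SE 0.12, adjusted p = 0.0242). The last 3 lost their calls with library totals. They also lost them on leaving out single libraries: *slc47a3* without replicate 1 at 0 h or replicate 2 or 3 at 3 h, *slc2a10* without replicate 3 at 0 h or replicate 2 at 3 h, and *slc26a5* without replicate 3 at 0 h or replicate 3 at 3 h. *slc5a6a*, lower at 3 h, lost its call there without replicate 1 at 0 h or replicate 2 at 3 h. Of the 19 that fell at 3 h, 3 had also fallen at 6 h and 16 had not, and 4 of these 16 had risen at 6 h: *slc6a16b*, *slc24a4b*, *slc2a1b* and *slc5a6a*. *slc2a1b* had 1242, 1235 and 1515 normalised counts at 3 h, below all its 0 h and 6 h libraries (-0.45, SE 0.12, adjusted p = 0.0218). Both comparisons share the 0 h libraries.

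Between 3 h and 6 h, 49 of the 120 genes rose and 8 fell, where 20.4% and 20.1% of all genes did. With library totals the numbers were 67 and 2, where 32.1% and 9.51% of all genes did and the median of all genes moved to 0.16. DEGs were 3, all higher at 6 h (1.5% of all genes were, and 0.0999% were lower). *slc5a6a* had 207, 258 and 225 normalised counts at 6 h and 97.3, 85.5 and 92.5 at 3 h (1.32, SE 0.15, adjusted p = 1.65e-05). *slc6a15* (1.27, SE 0.13, adjusted p = 3.33e-05) and *slc15a4* (1.14, SE 0.16, adjusted p = 6.11e-05) were the others. The creatine carrier gene *slc6a8* had 254, 263 and 231 at 6 h and 106, 131 and 115 at 3 h (1.09, SE 0.21, adjusted p = 0.00107), and reached the adjusted p of 0.05 but not of 0.001. *slc7a5* (0.98, SE 0.32, adjusted p = 0.0366) lost its call in 12 alternatives. Of the inorganic ion carriers 15 of 22 rose between 3 and 6 h and 0 fell (17 and 1 by unadjusted p, 15 and 0 by DESeq2), and of the amino acid carriers 16 of 28 rose and 1 fell. With library totals 19 of the 22 and 18 of the 28 rose and 0 fell, where 32.1% and 9.51% of all genes did. The largest decreases were those of *slc39a7* (-0.46, SE 0.06, adjusted p = 5.55e-05), *slc30a6* (-0.35, SE 0.08, adjusted p = 0.00205), *slc7a6os* (-0.30, SE 0.09, adjusted p = 0.012), *slc35b1* (-0.28, SE 0.05, adjusted p = 0.000385), a nucleotide carrier of the endoplasmic reticulum, and *slc1a3a* (-0.28, SE 0.06, adjusted p = 0.00171), a glutamate carrier. With library totals the calls of *slc35b1* (adjusted p = 0.0638), *slc1a3a* (adjusted p = 0.0898) and *slc7a6os* (adjusted p = 0.182) were lost, and that of *slc7a6os* also without replicate 2 at 3 h.

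Gene span moved with the 3 h values. The 19 genes that fell at 3 h had a median span of 30.99 kb between their annotated ends and the 12 that rose 18.1 kb, beside 23.0 kb for all 120 and 15.8 kb for all tested genes. The 60 longer solute carriers had a median log2 fold change of -0.15 at 3 h and 0.22 from 3 h to 6 h, and the 60 shorter ones 0.01 and 0.03. Over all tested genes split at the same span the medians were -0.09 and 0.16 for the 6800 longer and 0.05 and -0.10 for the 11217 shorter genes. The part of span in the results was not tested.

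Related genes outside the slc symbols were counted for context. Of 39 tested members of the superfamily under other symbols, which include 1 gene matched by its prefix only (*ankhd1*, no transporter), 9 rose and 3 fell at 6 h. Among them 1 was a DEG, *sfxn1* (1.33), where 1.47% of all genes were DEGs that increased. Of 28 genes with ABC symbols, most of them for pumps driven by ATP, 8 rose and 3 fell. The list includes *abce1*, *abcf1*, *abcf2a* and *abcf2b*, matched by symbol only and no pumps. *abce1* (-0.39) and *abcf2a* (-0.31) were among those that fell. The ABC list held 3 DEGs: *abcb6a* (2.53), *abcc1* (1.42) and *abcc4* (1.39). Of 5 subunits of the Na,K-ATPase, which sets up the sodium gradient, 2 rose and 1 fell, and of 15 V-ATPase subunits 2 rose and 2 fell, where 14.1% and 14.9% of all genes did. At 3 h 8 of the 15 V-ATPase subunits rose, where 11.3% of all genes did. These lists were not counted with library totals. In the amino acid response, the factor Atf4 raises uptake and synthesis genes when amino acids run short. Of 11 tested genes of this response 8 rose at 6 h, with a median of 0.37, where 14.1% of all genes rose. Among the 8 were *sesn2* (0.88), *atf3* (0.65), *trib3* (0.54) and *asns* (0.37), and *atf4a* itself had -0.06 (adjusted p = 0.546). At 3 h 7 of the 11 rose, where 11.3% of all genes did, and *atf4a* was among them (0.22, SE 0.07, adjusted p = 0.026). At 1 h 2 of the 11 rose, where 0.155% of all genes did. These were *trib3* (0.37, adjusted p = 0.0124) and *atf3* (0.43, adjusted p = 0.0157). A link between this response and the amino acid carriers was not tested.

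In EPA cells, transcripts were assembled without a genome, and 116 assembled (Trinity) genes carried a UniProt name that maps to an slc symbol outside the excluded ones. They stand for 104 names, since 21 Trinity genes share a name, and 112 were tested. After 6 h of light, 20 of the 112 rose and 1 fell against 0 h in edgeR, where 4.35% and 1.91% of all 23118 tested Trinity genes did. That total includes Trinity genes without a protein name. Shares among named Trinity genes, or among those with higher counts, were not counted at any time. The shares given for EPA cells are thus not like for like. Unadjusted p under 0.05 gave 28 and 12, and DESeq2 gave 24 and 9. Shares of all Trinity genes were not counted at an unadjusted p or by DESeq2. DEGs were 5 up and 0 down, where 0.298% and 0% of all Trinity genes were, and DESeq2 gave 6 and 0. The median log2 fold change was 0.03, beside -0.01 over all. Of 29 amino acid and peptide carriers 13 rose, among them 4 of the 5 DEGs. The other 7 that rose were 2 of 11 carriers of organic anions, cations and carboxylates, 2 of 7 sugar carriers, both lipid carriers and 1 of 9 vitamin, choline and haem carriers. With only the 0 h and 6 h libraries fitted, 1 DEG was left, and the same number at 3 h with only 0 h and 3 h.

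EPA *slc1a5* (ASCT2) changed early. It had 793, 679.5 and 775 normalised counts at 0 h, 1549, 1646 and 1599 at 1 h, 2103, 2209 and 2124 at 3 h and 2432, 2707 and 2248 at 6 h, and no 2 of these times overlapped. It was a DEG at 1, 3 and 6 h (log2 fold change 1.72, SE 0.08, adjusted p = 1.31e-06 at 6 h). *slc1a4* (ASCT1) had 4930.1, 4851 and 4903 at 0 h, 7112, 7499 and 7403 at 1 h, 9854, 9852 and 10075 at 3 h and 12254, 11575 and 11991 at 6 h, each time above the one before in all libraries (log2 fold change 1.29, SE 0.03, adjusted p = 1.41e-08 at 6 h). *slc16a10*, a carrier of aromatic amino acids in the monocarboxylate family, had 1343, 1366 and 1297 at 6 h and 542, 576 and 545 at 0 h (log2 fold change 1.27, SE 0.05, adjusted p = 4.97e-07).

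*slc38a3*, a sodium-coupled glutamine carrier, had 2472, 2515 and 2472 normalised counts at 6 h and 1231, 1279 and 1198 at 0 h (log2 fold change 1.01, SE 0.04, adjusted p = 2.82e-07). *slc7a5* (LAT1) had 1352, 1408 and 1215 at 6 h and 664, 637 and 626 at 0 h (log2 fold change 1.04, SE 0.06, adjusted p = 3.77e-06), and fell short of the DEG rule without replicate 2 at 6 h, when the EPA count of DEGs was 3. Its heavy chain gene *slc3a2* had 3804, 3789 and 3816 at 0 h, 6366, 6738 and 6666 at 1 h, 5233, 5359 and 5476 at 3 h and 6714, 6473 and 6738 at 6 h, so that it was as high at 1 h as at 6 h and lower between. Other amino acid carriers that rose at 6 h were *slc6a15* (0.94), *slc7a1* (0.89), *slc38a2* (0.69), *slc7a3* (0.39) and *slc7a7* (0.35). In the joint fit with PAC-2 cells, the EPA difference of *slc7a7* did not pass (0.35, SE 0.15, adjusted p = 0.114).

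**Figure D4:**
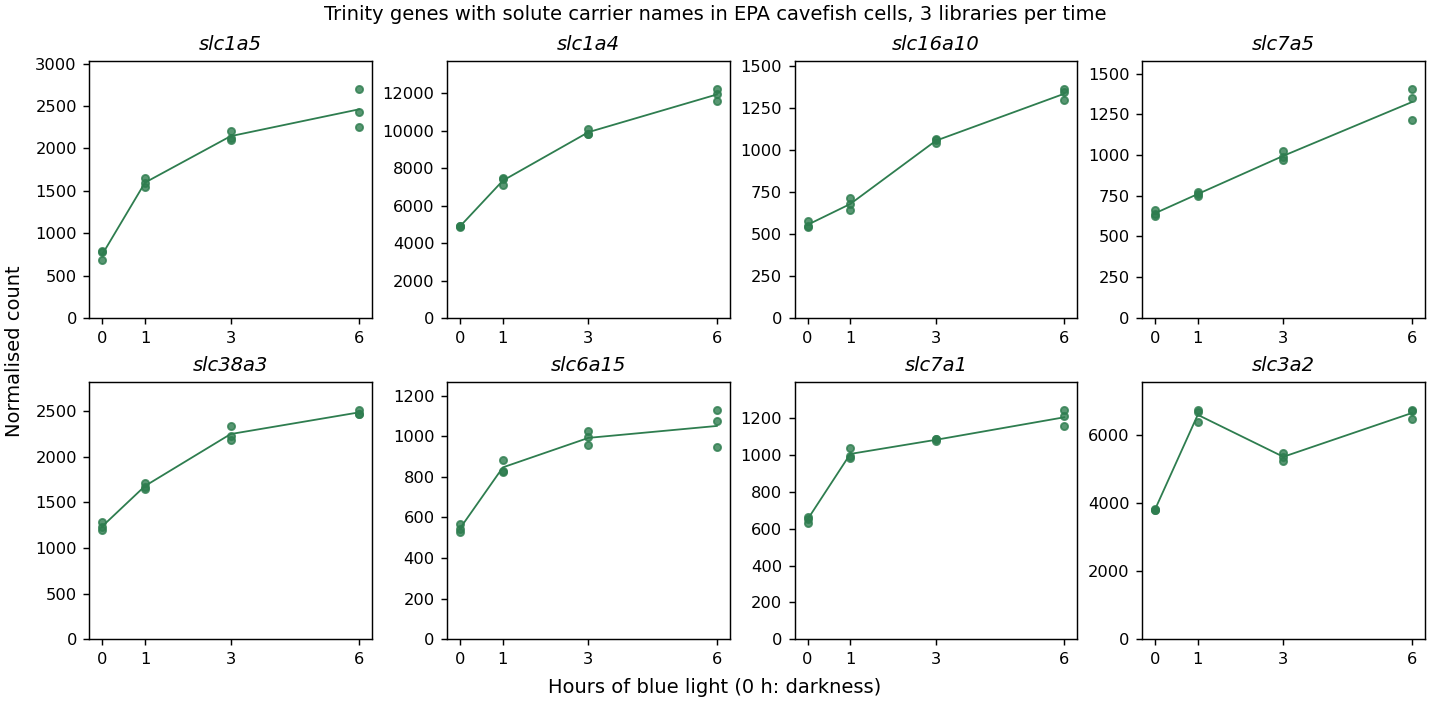
Normalised counts of 8 Trinity genes with solute carrier names in EPA cells (vertical axis, from 0 in each panel) against hours of blue light, with a point for each library and a line through the means of 3 libraries. *slc1a5*, *slc1a4* and *slc38a3* were already higher at 1 h, and *slc3a2* was higher at 1 h and 6 h than at 3 h.

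*slc7a11*, the cystine-glutamate exchanger, had the highest EPA fold change but few counts. It had 19, 16.5 and 23.6 normalised counts at 0 h, 25.3, 26.7 and 26.5 at 1 h, 52, 49.6 and 44.4 at 3 h and 148, 132 and 111 at 6 h (log2 fold change 2.72, SE 0.65, adjusted p = 0.039 at 6 h), and its call was lost in 11 alternatives, with an adjusted p of up to 0.129. The 1 that fell, the choline carrier-like *slc44a2*, had 1434, 1391 and 1353 at 6 h and 1529, 1498 and 1539.6 at 0 h (log2 fold change -0.13, SE 0.03, adjusted p = 0.0363), and its call was lost in 13 alternatives. At 3 h, 11 rose and 0 fell, where 1.09% and 0.19% of all Trinity genes did, with 2 DEGs up (0.0908% of all) and 0 down (0% of all). At 1 h, 9 rose and 0 fell, where 0.285% and 0.0303% did, with 1 DEG (0.0303% of all). Unadjusted p under 0.05 gave 27 and 2 at 3 h and 22 and 1 at 1 h, and DESeq2 gave 19 and 0 and 11 and 0. Here too, shares of all Trinity genes were not counted by these rules. All 11 and all 9 were among the 20 that rose at 6 h.

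The responses of EPA and PAC-2 cells at 6 h were compared by an interaction test on the 75 slc names tested in both assembled tables. *slc1a5*, *slc16a10* and *slc7a11*, which rose in EPA cells, were not among these names, so their responses were not compared between the lines. The log2 fold changes differed by 1 or more, at an adjusted p under 0.05, for 1 name, where 0.4% of all 6244 names differed this way with a higher response in EPA and 0.945% with a lower one. This was HRG1B, a haem transporter (EPA 0.16, PAC-2 1.29, difference -1.12, SE 0.22, adjusted p = 0.000272). Without EPA replicate 1 at 0 h the difference was just under 1 and the count 0, and without PAC-2 replicate 3 at 6 h the count was 2. The assembled PAC-2 gene of this name had 446, 456 and 385 normalised counts at 6 h and 222, 153 and 143 at 0 h. In the genome table, *slc48a1a*, which the rule excludes, had 419.8, 390.0 and 331 at 6 h and 177, 134 and 105 at 0 h. The hand-written map of names gave HRG1B the symbol *slc48a1b* instead. In the genome table *slc48a1b* had 225.8, 236 and 268 at 6 h and 261, 260.9 and 242 at 0 h (log2 fold change -0.07, adjusted p = 0.636). The assembled PAC-2 gene named HRG1A, outside the 75 names, had 356, 343 and 383 at 6 h and 361, 400 and 378 at 0 h (log2 fold change -0.07). In PAC-2 cells the values of HRG1B thus followed *slc48a1a* and those of HRG1A followed *slc48a1b*. The 1 call rests there on values like those of an excluded gene, and which naming is right was not settled.

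With no minimum size, 13 of the 75 names had a higher and 15 a lower response in EPA cells at an adjusted p under 0.05, where 28.6% and 18.8% of all names did. *slc1a4* (named SATT) had a log2 fold change of 1.29 in EPA and 0.63 in PAC-2 cells (difference 0.65, SE 0.07, adjusted p = 1.12e-07). The chains of the LAT1 exchanger both responded more in EPA: *slc3a2* with 0.80 in EPA and 0.30 in PAC-2 (difference 0.51, adjusted p = 2.9e-07), and *slc7a5* with 1.04 in EPA and 0.52 in PAC-2 (0.52, adjusted p = 0.000148). The PAC-2 value of *slc7a5* passed edgeR's test in this fit (adjusted p = 1.64e-06), where the genome table gave 0.46, not called. Counts were summed over the Trinity genes of a name, so that *slc38a3* had 0.50 in EPA here. *slc7a1* had 0.89 in EPA and 0.42 in PAC-2 (0.47, adjusted p = 3.73e-05). *slc7a3* differed the other way, with 0.38 in EPA and 0.84 in PAC-2 (-0.46, adjusted p = 1.1e-05). The zinc exporter name *slc30a1* had 0.00 in size in EPA and -0.55 in PAC-2 (0.54, adjusted p = 0.000531). In the PAC-2 genome table only the less abundant copy *slc30a1b* fell (-0.55, 8.51 TPM at 0 h). The copy *slc30a1a* (58.4 TPM) had -0.09 and was not called. By class, 6 of 19 amino acid carriers had a higher and 2 a lower response in EPA, where 28.6% and 18.8% of all names did. A lower response was seen in 4 of 10 inorganic ion carriers and in 4 of 6 vitamin, choline and haem carriers, HRG1B among them. Both lipid carriers had a higher one. Of 14 metal carriers 3 had a higher and 2 a lower one, and of 14 carriers of nucleosides and nucleotide sugars 2 and 2.

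**Figure D5:**
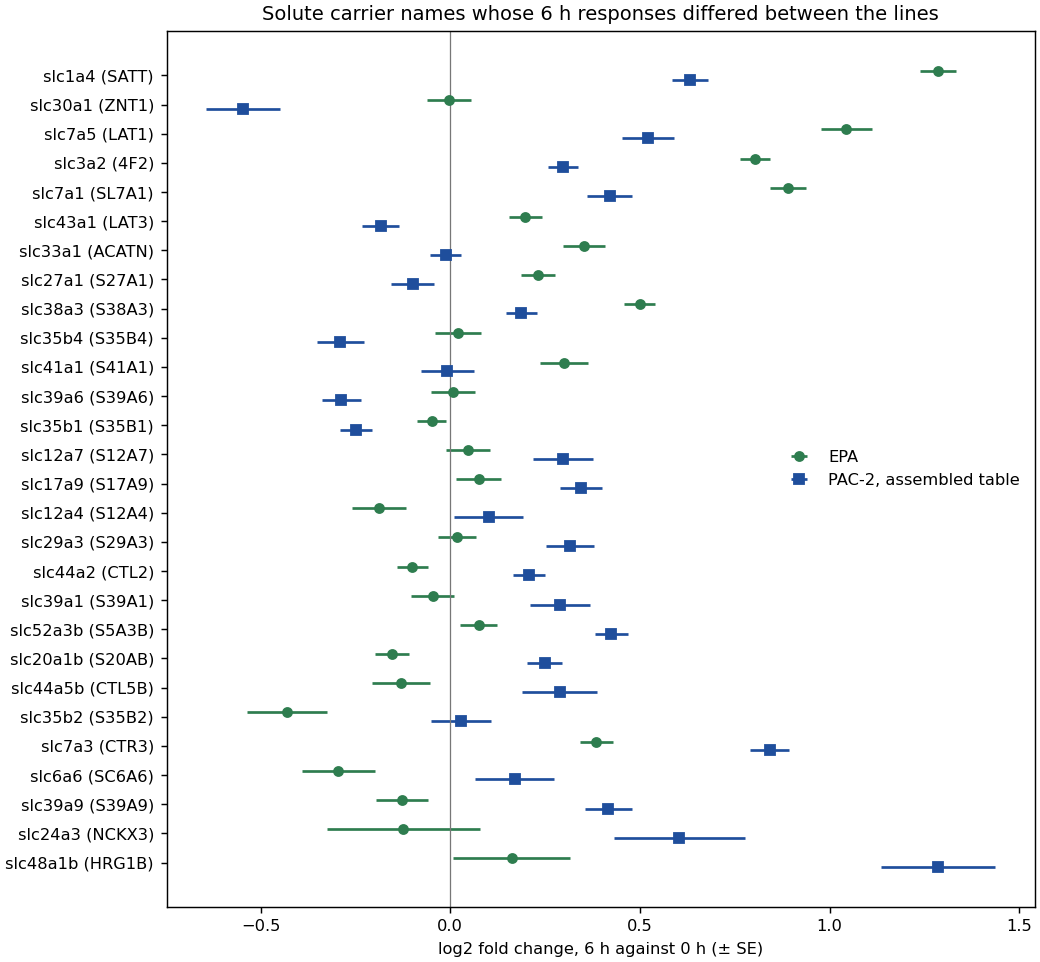
Log2 fold changes at 6 h against 0 h with their SE (horizontal axis) in EPA cells (green circles) and PAC-2 cells, assembled table (blue squares), for the 28 slc names whose responses differed at an adjusted p under 0.05, ordered by the difference. *slc1a4* heads the names with a higher response in EPA. HRG1B, labelled *slc48a1b* from the hand-written map although its PAC-2 values follow *slc48a1a*, stands last.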

How the data were processed

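RNA-seq of EPA and PAC-2 cells was analysed, 12 libraries per line. Per the labels and the study's methods, zebrafish reads were mapped to GRCz11 and the authors deposited raw counts per gene; both lines were also assembled with Trinity, named by BLASTX against UniProt, and the authors deposited expected counts from salmon, rounded here to whole numbers. Aligner, counter, annotation release and strand: not given in the sources used here. All 12 libraries of a table were fitted together in edgeR 4.0.16 (R 4.3.3; TMM, filterByExpr, robust quasi-likelihood, 8 residual degrees of freedom) and adjusted over all genes tested; the median biological coefficient of variation was 0.102 in PAC-2 and 0.132 in EPA cells. The interaction joined both assembled tables, with counts of a name summed, each library scaled within its own table. TPM was computed from counts and the table's gene length and used for levels only. An exact permutation test of 3 against 3 libraries cannot go below p = 0.1. The fits were checked on simulated data.

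Named are the DEGs, the 10 largest increases and decreases at 6 h and the 5 largest at 3 h and 6 h against 3 h without overlap between groups, the 10 highest levels, the extremes of each substrate class, fixed uptake genes, and in EPA the 5 largest; copies, 3 h courses and other genes given as examples were chosen after their values were seen. Alternatives were RLE factors, DESeq2 1.42.0, no filter on low counts, only the times compared, a replicate term, each library left out, no minimum fold, the most abundant Trinity gene of a name, and library totals. The members and lists were chosen with earlier results of these data known. EPA names come from a hand-written map of UniProt entries.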

Additional observations from a re-analysis of the deposited data

Results flagged for a closer look

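The 6 h responses of EPA and PAC-2 cells differed by 0.5 or more in log2 fold change for 7 slc names, at an adjusted p under 0.05 in the interaction test. HRG1B differed by -1.12 (EPA 0.16, PAC-2 1.29), and its PAC-2 values follow *slc48a1a*. NCKX3 (*slc24a3*) differed by -0.73 (EPA -0.12, PAC-2 0.60), where PAC-2 has another Trinity gene of this name at 0 in all 0 h libraries and the genome gene had 0.18. S39A9 (*slc39a9*, a zinc carrier) differed by -0.54 (EPA -0.13, PAC-2 0.42), where the genome gene had 0.00. SATT (*slc1a4*) differed by 0.65 (EPA 1.29, PAC-2 0.63), and ZNT1 (*slc30a1*) by 0.54 (EPA 0.00 in size, PAC-2 -0.55). The genome copies of the latter had -0.09 (*slc30a1a*, 58.4 TPM at 0 h) and -0.55 (*slc30a1b*, 8.51 TPM). LAT1 (*slc7a5*) differed by 0.52 (EPA 1.04, PAC-2 0.52) and 4F2 (*slc3a2*) by 0.51 (EPA 0.80, PAC-2 0.30).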

How the results depend on the processing

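Counts of DEGs in PAC-2 cells on leaving out 1 library at a time ranged between 1 and 2 after 6 h and between 3 and 4 for 6 h against 3 h, and were 0 throughout after 3 h and 1 h. In EPA cells they were 3 to 6 at 6 h and 2 to 2 at 3 h, and the interaction count was 0 to 2. At an adjusted p under 0.05 with no minimum fold, the counts were 46 at 6 h, 31 at 3 h, 0 at 1 h and 57 for 6 h against 3 h in PAC-2 cells, 21 at 6 h and 11 at 3 h in EPA cells, and 28 in the interaction. With only the 2 times compared, EPA cells had 1 DEG at 6 h and 1 at 3 h. With library totals, 6 h against 3 h gave 5 DEGs.

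Leaving out 1 library gave 38 to 50 changed genes at 6 h in PAC-2 cells and 17 to 37 at 3 h. Libraries of the same time correlated at 0.986 to 0.989 in PAC-2 and 0.832 to 0.859 in EPA cells. For pairing, deviations of each library from the mean of its time, on a log scale, were compared between same-numbered libraries of different times. These deviations correlated at -0.086 to 0.160 in PAC-2 and -0.042 to 0.035 in EPA cells, so the numbers were not taken to pair samples. A replicate block gave 2 DEGs at 6 h and 4 for 6 h against 3 h in PAC-2 cells. In EPA cells it gave 5 at 6 h and 2 at 3 h, and in the interaction 1. Among 1387 values of single genes under the alternatives, 1296 kept direction and call, 90 lost the call, 1 gained it and 0 changed sign. With only the most abundant Trinity gene of a name, NCKX3 and S39A9 lost their calls (S39A9 at -2.40).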
